A study of Mus musculus with 2 samples.

Results

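The imprinted genes of the newborn mouse spleen are described here, as a list of 39 mouse symbols that are classed as imprinted in at least 1 tissue. The rule picks members by name and uses no measured value, although the list was drawn up with earlier results of these data known, and 38 of the 39 were matched among 43346 Ensembl genes. Peg13 was not matched and was not analysed here. Total RNA was sequenced from the spleens of 2 pups of the B6NCrl strain, an inbred C57BL/6N line, on postnatal day 0, with 1 library per spleen from littermates of 1 pregnancy. Replicate 1 came from pup 2 and replicate 2 from pup 1. The pups were untreated as far as the labels say, their sex was not recorded, and both carry the same donor identifier although they are described as separate pups. They form 1 group, so the design holds no contrast between conditions, and no p-value can be given for a difference between 1 spleen and another.

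An imprinted gene is transcribed mainly from the copy inherited from 1 parent. The parental mark is DNA methylation that is laid down in the egg or the sperm at an imprinting control region, and it sets which neighbouring genes are active on each chromosome, often through a long noncoding RNA or a boundary factor. Many imprinted genes act on fetal and placental growth and are turned down after birth, and several are known from blood stem cells and their stroma. The RNA counts of an inbred strain cannot tell the parental copies apart, so the parental classes given below are textbook knowledge and not a result. By that knowledge 10 listed genes are maternally expressed, 20 paternally expressed, and 9 are imprinted only in certain tissues, such as placenta or brain, or for certain transcripts.

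Several imprinted genes have more than 1 start of transcription, and these starts can differ in their parental mark. The windows of 3 such genes are shown so that the start in use in the spleen can be set beside one that was little used. The Peg3 window is shown because it is shared with a neighbour without counts. Each window runs from 250 bases before to 50 bases after a start site of RefSeq on GRCm38.p6 and is written in the direction of transcription. Capitals in the Mest, Grb10 and Gnas windows mark TGCCGC or its reverse complement GCGGCA, the letters bound by the imprint-keeping factor ZFP57, and capitals in the Peg3 window mark the bases from the Usp29 start to the Peg3 start. The Peg3 window lies at chr7:6730370-6730669 on the minus strand. The Mest windows lie at chr6:30733256-30733555 and chr6:30737800-30738099 on the plus strand, the Grb10 windows at chr11:12027922-12028221 and chr11:12037371-12037670 on the minus strand, and the Gnas windows at chr2:174284070-174284369 and chr2:174329756-174330055 on the plus strand.
Peg3: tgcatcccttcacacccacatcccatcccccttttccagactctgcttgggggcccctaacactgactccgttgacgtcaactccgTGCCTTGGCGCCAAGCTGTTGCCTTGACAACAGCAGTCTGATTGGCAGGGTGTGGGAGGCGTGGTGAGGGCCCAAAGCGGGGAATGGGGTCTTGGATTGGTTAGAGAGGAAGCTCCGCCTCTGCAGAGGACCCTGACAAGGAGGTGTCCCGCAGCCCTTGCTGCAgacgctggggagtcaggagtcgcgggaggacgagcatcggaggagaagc
Mest upstream start: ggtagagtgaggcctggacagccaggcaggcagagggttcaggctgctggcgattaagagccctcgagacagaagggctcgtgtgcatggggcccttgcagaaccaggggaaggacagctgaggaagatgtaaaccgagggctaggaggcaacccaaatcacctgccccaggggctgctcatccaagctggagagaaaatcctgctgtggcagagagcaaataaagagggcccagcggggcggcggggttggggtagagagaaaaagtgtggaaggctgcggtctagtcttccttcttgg
Mest main start: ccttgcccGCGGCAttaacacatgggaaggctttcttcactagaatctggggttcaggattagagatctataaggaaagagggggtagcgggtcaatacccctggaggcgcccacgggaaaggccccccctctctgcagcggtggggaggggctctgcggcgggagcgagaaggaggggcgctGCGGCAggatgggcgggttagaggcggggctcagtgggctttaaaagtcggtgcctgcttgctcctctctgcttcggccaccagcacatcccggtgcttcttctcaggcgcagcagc
Grb10 internal start: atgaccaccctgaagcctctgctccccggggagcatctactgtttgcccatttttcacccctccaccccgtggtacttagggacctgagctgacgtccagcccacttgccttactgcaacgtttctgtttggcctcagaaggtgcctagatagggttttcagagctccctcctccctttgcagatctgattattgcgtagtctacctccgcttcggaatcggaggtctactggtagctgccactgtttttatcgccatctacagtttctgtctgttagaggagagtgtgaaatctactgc
Grb10 main start: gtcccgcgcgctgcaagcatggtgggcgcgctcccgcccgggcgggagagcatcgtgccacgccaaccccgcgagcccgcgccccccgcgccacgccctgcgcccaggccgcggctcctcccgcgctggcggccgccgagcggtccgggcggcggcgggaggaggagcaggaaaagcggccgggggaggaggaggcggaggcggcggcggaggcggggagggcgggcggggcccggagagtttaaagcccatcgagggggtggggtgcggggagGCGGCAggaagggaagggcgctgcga
Gnas Nesp start: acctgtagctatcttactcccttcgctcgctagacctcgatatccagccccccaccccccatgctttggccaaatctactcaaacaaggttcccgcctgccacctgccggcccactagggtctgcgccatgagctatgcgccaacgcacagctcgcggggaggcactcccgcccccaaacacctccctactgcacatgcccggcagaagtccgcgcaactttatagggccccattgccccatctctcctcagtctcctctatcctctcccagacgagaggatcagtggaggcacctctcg
Gnas Gs-alpha start: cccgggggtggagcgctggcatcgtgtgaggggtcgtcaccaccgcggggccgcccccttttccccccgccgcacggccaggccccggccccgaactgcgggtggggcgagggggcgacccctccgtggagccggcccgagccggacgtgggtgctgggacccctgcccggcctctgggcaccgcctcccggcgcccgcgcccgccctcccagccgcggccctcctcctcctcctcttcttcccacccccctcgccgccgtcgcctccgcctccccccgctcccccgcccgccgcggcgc

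Imprinted genes ranged from 0 counts to 838 TPM in the newborn spleen. TPM is the deposited transcript level, normalized for length and for the library's total, so it can be compared between genes, and a gene was called detected at 1 TPM or more in both libraries. By that rule 27 of 38 members were detected, 71.1%, against 31.0% of all Ensembl genes. Of the 33 protein-coding members 23 were detected, 69.7%, against 55.6% of protein-coding genes, and of the 5 noncoding members 4 were detected. At 10 TPM or more in both libraries stood 16 members, and at 100 TPM or more 5. Together the members held 1619 TPM in replicate 1 and 2006.5 TPM in replicate 2 (mean 1812 ± 274, SD, n = 2). A level in a whole organ mixes all its cells, and fewer cells of a type and less RNA per cell cannot be told apart.

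**Figure D1:**
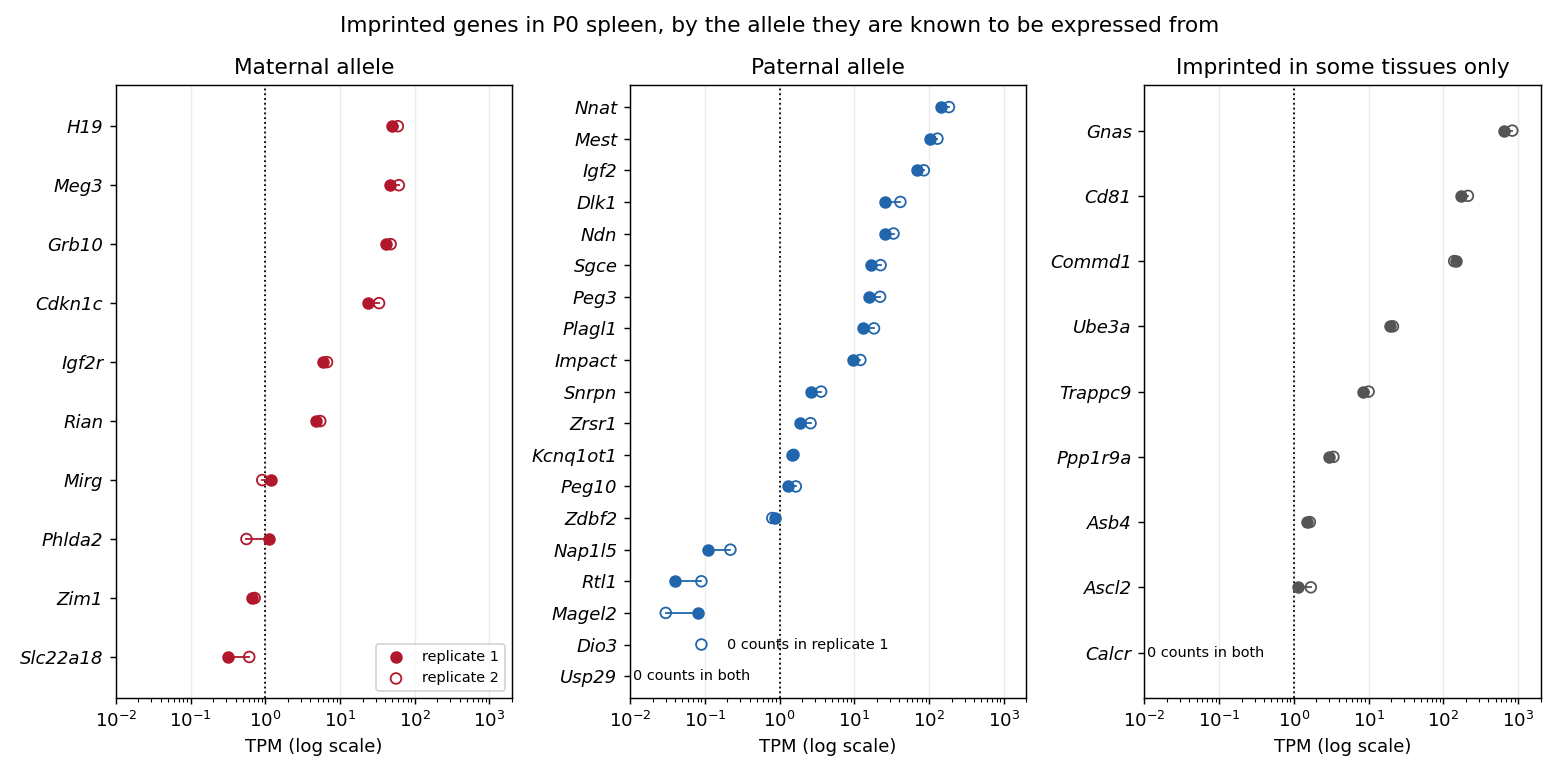
Level of each imprinted gene in TPM on a log axis, with replicate 1 as filled and replicate 2 as open circles, in 3 panels by the allele each gene is known to be expressed from; the dotted line is 1 TPM. Gnas, at 657 and 838 TPM, lies furthest right, and Usp29 and Calcr had 0 counts in both libraries.

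The order of the levels was resolved at its top and less so below. Of the 37 pairs of neighbours in the order, the ranges of 21 overlapped between the libraries. Gnas stood clear of Cd81, and Commd1, Mest and Igf2 each stood clear of the next gene. H19, Meg3, Grb10, Dlk1, Ndn and Cdkn1c formed a run in which each overlapped its neighbour.

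Gnas, the signalling gene that encodes the stimulatory G-protein alpha subunit and other proteins from separate starts, had the highest level of the list. It had 657 TPM in replicate 1 and 838 TPM in replicate 2, from 32731 and 39478 estimated counts, and held 41.2% ± 0.837 of the members' summed TPM (SD, n = 2). Its transcripts that begin within 500 bases of the Gs-alpha window held 91.4% of its TPM in each library. Those that begin at the Nesp window, a start known to be maternal, held 0.493% in replicate 1 and 0.734% in replicate 2. Those at a start between these windows, at chr2:174327499-174327817, held 7.03% and 6.74%. Gnas-203, Gnas-204 and Gnas-223 also begin between them, at chr2:174297859, and were assigned to none of these starts. The Gs-alpha start is known to be active on both alleles in most tissues. Gnas-208 was the leading transcript with 58.2% of the TPM and Gnas-206 held 21.7%. A gene on the opposite strand of Gnas, Gm20721, stood at 2644 counts in replicate 1 against 1209.9 in replicate 2, and since no source used here says whether counting used strand, reads of the 2 genes may be divided in error.

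Igf2, its neighbour H19, its receptor gene Igf2r and the adaptor gene Grb10 were all detected. Igf2, the fetal growth factor and a paternally expressed gene, had 69.2 TPM in replicate 1 and 85.2 TPM in replicate 2. H19, the maternally expressed noncoding RNA that shares its enhancers with Igf2, had 49.0 TPM and 59.4 TPM. H19 stood at 0.707 of the Igf2 level in replicate 1 and at 0.697 in replicate 2, which is nearly the same ratio in both pups. Igf2r, the maternally expressed receptor that carries IGF2 to the lysosome, had 5.91 TPM and 6.70 TPM, or 0.0854 and 0.0786 of the Igf2 level. By counts, without regard to length, the mean ratio to Igf2 was 0.505 for Igf2r and 0.862 for H19. The quantified length of Igf2 was 1406.8 and 1377.1 bases, and that of Igf2r 7647.8 and 8490.1. Grb10, a maternally expressed adaptor that dampens insulin and IGF receptors, had 41.0 TPM in replicate 1 and 47.6 TPM in replicate 2. Airn, the antisense RNA of Igf2r, had 6.20 TPM and 7.64 TPM, from 164 and 181 counts. Igf2r had similar TPM from 1407 and 1672 counts, because Airn was quantified on much shorter models. Airn overlaps Igf2r on the opposite strand, so reads of these genes may be divided in error.

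The H19 transcript is also the precursor of miR-675, which is cut from its exons. The miR-675 hairpin lay within the exons of H19-202 and H19-205, which together held 67.3% of H19 TPM in replicate 1 and 65.4% in replicate 2. H19-202 held 42.1% of H19 TPM, H19-203 33.7% and H19-205 24.2%. The feature of the hairpin itself had 0 counts and an effective length of 0, and RNA longer than 200 bases was selected, so the mature form was not measured. Its mature sequences are shown, with the seed of bases 2 to 8 in capitals, because they are the product of H19 that pairs with other RNAs. They lie at chr7:142577112-142577133 and chr7:142577078-142577099 on the minus strand, in RefSeq on GRCm38.p6.
mmu-miR-675-5p: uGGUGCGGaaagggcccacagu
mmu-miR-675-3p: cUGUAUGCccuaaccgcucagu

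The Dlk1-Meg3 domain combined 2 abundant genes with 4 low ones. Meg3, its maternally expressed noncoding RNA, had 46.2 TPM in replicate 1 and 61.2 TPM in replicate 2. Dlk1, a paternally expressed membrane protein of the Notch-ligand kind, had 25.7 TPM and 41.4 TPM. Rian, a maternal host of small nucleolar RNAs, had 4.76 TPM and 5.44 TPM, and Mirg, a maternal microRNA host, had 1.19 TPM and 0.91 TPM. Meg3 thus stood at 1.80 and 1.48 of the Dlk1 level and at 9.71 and 11.3 of the Rian level, although Meg3, Rian and Mirg are read in 1 direction along the same stretch of chromosome 12. Rtl1, a paternal gene derived from a retrotransposon, had 7 and 16 counts, and Dio3, the paternal deiodinase that inactivates thyroid hormone, had 0 and 5. A count of 0 allows up to 0.0580 TPM for Dio3 in replicate 1, taking 3 counts as the limit.

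The Kcnq1 domain on chromosome 7 had a similar spread. Cd81, a tetraspanin and part of the B-cell co-receptor, had 173 TPM in replicate 1 and 214 TPM in replicate 2 and is known to be imprinted in placenta only. Cdkn1c, the maternally expressed cell cycle inhibitor p57, had 23.6 TPM and 33.3 TPM. Its maternal neighbours were low, with 23 and 11 counts for Phlda2, a placental growth restrainer, and 14 and 26 for the transporter Slc22a18. Cdkn1c stood 21.3-fold above Phlda2 in replicate 1 and 59.5-fold in replicate 2, and the distance between these folds rests on the low Phlda2 counts. Ascl2, a transcription factor of the placenta, had 54 and 76 counts, or 1.14 TPM and 1.69 TPM. Kcnq1ot1, the paternal noncoding RNA that silences the domain, had 1.45 TPM and 1.54 TPM, which came from 3859 and 3864 counts because the transcript is very long. The gene that it runs through, Kcnq1, lies on the other strand and had 33.2 and 66 counts, and reads of these genes may be divided in error.

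Among paternally expressed genes, Nnat and Mest stood highest. Nnat, a membrane proteolipid gene that lies within an intron of Blcap, had 147 TPM in replicate 1 and 185 TPM in replicate 2, from 5088 and 6006 counts, while Blcap itself had 864 and 1010.0. Mest, which encodes a hydrolase-like protein of the mesoderm, had 105 TPM and 129.6 TPM. Mest-211 held 92.9% of Mest TPM. The main Mest start printed above held 95.5% of the gene's TPM in replicate 1 and 96.2% in replicate 2, while transcripts of the upstream start had 0 counts in both. Plagl1, a zinc finger factor that restrains growth, had 12.9 TPM and 18.4 TPM, and Plagl1-202 held 74.0% of it. Impact, an inhibitor of the stress kinase GCN2, had 9.54 TPM and 12.1 TPM.

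Peg3 and Usp29 gave a strong contrast between neighbours. Peg3, a paternally expressed zinc finger gene, had 16.0 TPM in replicate 1 and 22.2 TPM in replicate 2, from 4170 and 5468 counts. Usp29, a ubiquitin protease gene that is paternally expressed as well, had 0 counts in both libraries, which allows up to 0.0379 TPM and 0.0402 TPM. Peg3 was therefore higher than Usp29 by at least 421-fold in replicate 1 and by at least 552-fold in replicate 2, with 3 counts per library as the limit. The 2 genes start head to head, and their start sites are 164 bases apart, so 263 of the 300 bases of each window are shared. Neither window holds TGCCGC on either strand. No quantified Usp29 transcript model begins within 500 bases of the Usp29 start, so the 0 counts of Usp29 come from models that begin elsewhere. Zim1, a maternally expressed zinc finger gene next to Peg3, had 0.66 TPM and 0.72 TPM.

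The domain around Snrpn, which is linked to the Prader-Willi and Angelman syndromes in humans, was represented by 3 of its 4 members. Ndn, a paternal gene of the MAGE family, had 25.7 TPM in replicate 1 and 33.5 TPM in replicate 2, and its paternal relative Magel2 had 11 and 4 counts. Ndn stood 321-fold above Magel2 in replicate 1 and 1117-fold in replicate 2, ratios that rest on those few counts. Snrpn, the paternal gene of a spliceosomal protein, had 2.64 TPM and 3.60 TPM, all on Snrpn-201, and it shares its exons with Snurf, so its level is uncertain. Ube3a, a ubiquitin ligase gene that is imprinted in neurons, had 19.4 TPM and 21.2 TPM, and its antisense gene Snhg14 had 237 and 248 counts.

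The Peg10-Sgce pair also starts head to head, and here both genes were detected. Sgce, the paternal epsilon-sarcoglycan gene, had 16.6 TPM in replicate 1 and 22.5 TPM in replicate 2. Peg10, a paternal gene derived from a retrotransposon, had 1.28 TPM and 1.65 TPM, or 0.0772 and 0.0733 of the Sgce level. In the same domain Ppp1r9a, the gene of the actin-binding neurabin, had 2.94 TPM and 3.39 TPM. Asb4, a ubiquitin ligase adaptor, had 1.52 TPM and 1.64 TPM, and Calcr, the calcitonin receptor, had 0 counts in both, which allows up to 0.0321 TPM and 0.0340 TPM.

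The remaining 5 members ranged from 0.11 TPM to 146 TPM in replicate 1. Commd1, a regulator of copper handling and protein sorting that is imprinted in brain, had 146 TPM in replicate 1 and 139.9 TPM in replicate 2. Zrsr1, the paternally expressed splicing factor retrogene inside its intron, had 1.88 TPM and 2.60 TPM. Both overlap Gm28048, with 1039 and 1260.3 counts, so the split of reads there is uncertain. Trappc9, a trafficking complex gene, had 8.48 TPM and 10.0 TPM. Zdbf2, a paternal zinc finger gene, had 97 and 96 counts, and Nap1l5, a paternal retrogene within Herc3, had 6 and 12.

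By parental class, the tissue-limited genes held most of the transcripts. The 10 maternally expressed members summed to 174 TPM in replicate 1 and 216 TPM in replicate 2, the 19 paternally expressed ones to 435 and 560.2 TPM, and the 9 tissue-limited ones to 1009.5 and 1229.8 TPM. Of these, 6 maternal, 13 paternal and 8 tissue-limited genes were detected. The tissue-limited genes held 61.8% of the members' TPM on average, and Gnas gave 748 of their 1119.7 TPM.

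The shares of single transcripts were near those of other genes. Of 23 members with 2 or more transcripts and a mean of at least 1 TPM, 15 had 1 transcript with over 50% of the gene's TPM in both libraries, 65.2%, against 69.7% of all genes that met this rule. The leading transcript was the same in both libraries for 21, 91.3%, against 90.4%. Cd81-201 held 98.7%, Igf2r-201 90.5%, Peg3-201 92.2%, Asb4-201 89.3% and Cdkn1c-201 80.4%. Grb10-201 held 79.6%, Meg3-205 78.6%, Dlk1-205 73.1% and Nnat-202 67.5%. In Trappc9, Trappc9-202 held 63.3% and Trappc9-201 26.0%, and in Sgce, Sgce-205 held 56.9% and Sgce-202 26.0%. Besides H19, described above, and Ascl2, 6 genes had no transcript over 50% in both libraries, with 45.0% for Ppp1r9a-201, 44.9% for Peg10-203 beside 42.2% for an unnamed transcript, 43.2% for Mirg-207 beside 32.8% for Mirg-201, 38.8% for Commd1-203 beside 37.5% for Commd1-202 and 22.4% for Commd1-205, 37.2% for Igf2-208 beside 36.0% for Igf2-203, and 36.0% for Rian-202. Ascl2 had all of its TPM on Ascl2-202 in replicate 1, and 22.5% there and 77.5% on Ascl2-201 in replicate 2. By counts another transcript led in Commd1, Igf2 and Mirg.

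The starts of a gene were also set beside their content of CpG dinucleotides, the letters that DNA methylation acts on. Only starts with a transcript model within 500 bases were compared. Of 9 detected members with 2 or more such separate RefSeq starts, the start with the largest share of TPM had the most CpG in 7, 77.8%, against 58.5% of the 1093 genes that met the same rule. Commd1 is among the 7 by 18 against 17 CpG alone, and 9 genes are too few to set this share apart from that of all genes. The main Grb10 start printed above held 45 CpG in its window and 76.2% of TPM in replicate 1 and 83.1% in replicate 2, against 9 CpG, 1.98% and 1.79% at the internal start. Grb10-207 begins further than 500 bases from both starts, so its 19.1% and 12.4% of TPM were assigned to neither. It is a short model that held 1.28% of the gene's counts on average. The Gs-alpha start of Gnas held 40 CpG against 16 at the Nesp start, and the main Mest start 17 against 8 at the upstream start. The exceptions were Asb4, with 6 against 8 CpG, and Igf2, whose leading start held 2 CpG and 35.6% and 36.4% of TPM, against 14 CpG, 2.12% and 1.95% at another. For Igf2 another start led by counts, with 36.2% and 33.0%. Igf2-208, with 37.2% of Igf2 TPM, and Igf2-205, with 24.0% of its counts, begin further than 500 bases from every start and were not assigned. An Igf2 start with 24 CpG was left out because no model begins within 500 bases of it. TGCCGC or its reverse complement was found in 13 of the 49 windows of members, 26.5%, against 11.6% of all 32851 windows. The 49 windows come from 31 members and were not merged, so overlapping Mest windows with the same matches were each counted. The median was 15 CpG in members' windows against 7 in all windows, and the part of this difference in the share of windows with the motif was not tested.

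**Figure D2:**
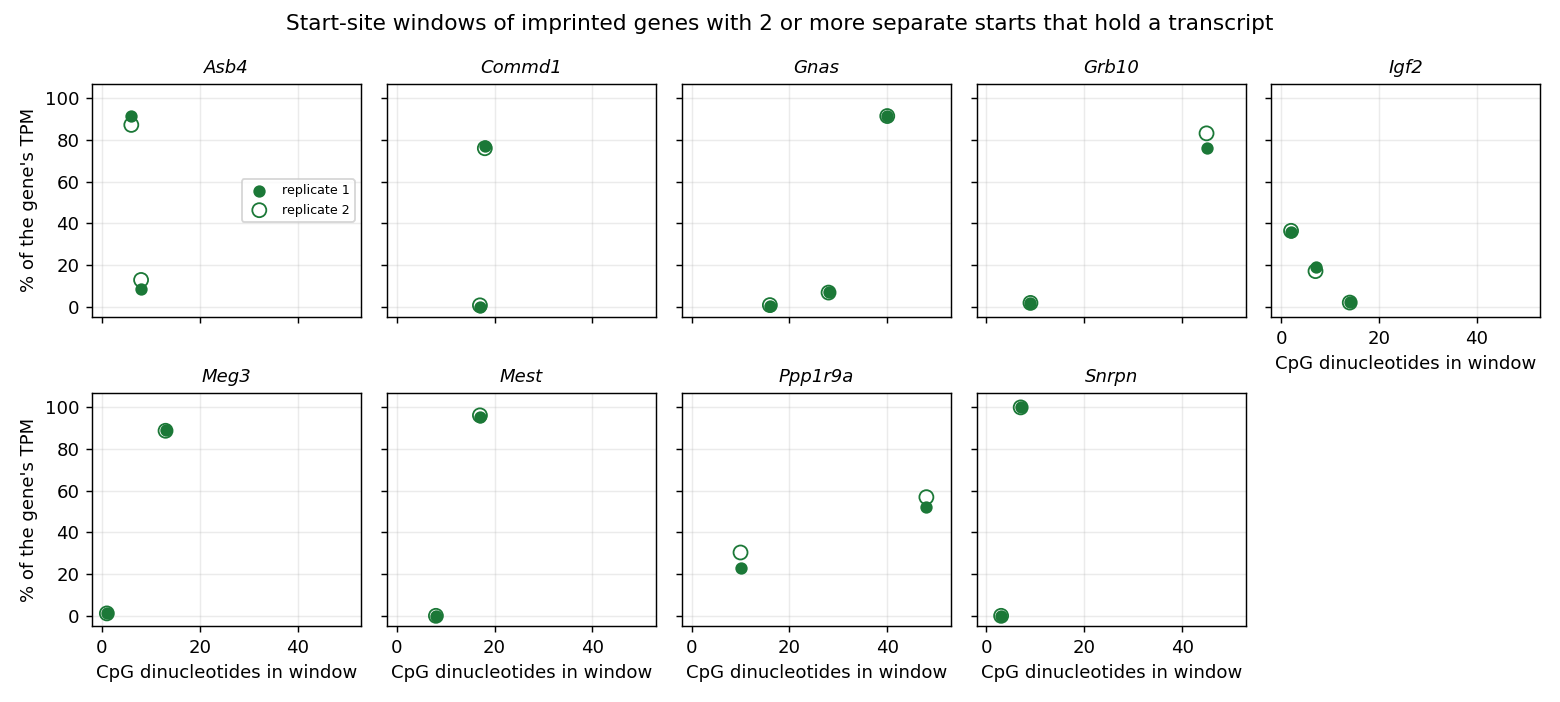
Share of a gene's TPM from transcripts that begin at each of its RefSeq starts (vertical axis, percent) against the CpG dinucleotides in the window of that start (horizontal axis), for the 9 detected imprinted genes with 2 or more separate starts that hold a transcript; filled circles are replicate 1 and open circles replicate 2. The highest point lies furthest right in 7 panels, and Asb4 and Igf2 are the exceptions.

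Imprinted genes were mostly a little higher in the spleen of replicate 2. With TMM scaling, 31 members had a mean count of at least 20 and entered the comparison with 15506 genes. Of these 31, 23 were higher in replicate 2, 74.2%, against 51.1% of all genes. Their median log2 ratio of replicate 1 over replicate 2 was -0.19, against -0.01 for all genes, and the members ranged from -0.76 for Slc22a18 to 0.55 for Mirg. Scaling by library size alone moved the median of all genes to -0.11 and gave 29 of 31 members higher in replicate 2, and the deposited TPM moved it to -0.14 and gave 28. The members' median minus that of all genes lay between -0.20 and -0.17 under every scaling and filter tried. A scaling factor shifts all genes nearly alike, so where only this factor changed the difference was nearly fixed by construction. The sign depended on the scaling for Rian, Kcnq1ot1, Zim1, Asb4, Ube3a and Zdbf2.

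The differences between the pups were small for nearly every member. At least 1.5-fold apart were 2 of 31 members, Dlk1 and Slc22a18, against 7.11% of all genes. Both were higher in replicate 2, against 4.57% of all genes, and 0 were that much higher in replicate 1, against 2.54%. Of the members 0 were 2-fold apart, against 1.78%. Dlk1 was counted 1120 times in replicate 1 and 1800.0 times in replicate 2, a log2 ratio of -0.63, and it was 1.54-fold higher in replicate 2 with a 95% counting interval of 1.43 to 1.67. Slc22a18, with 14 and 26 counts, had a log2 ratio of -0.76, and its interval of 0.899 to 3.70 for replicate 2 over replicate 1 included 1. The exact counting interval excluded 1 for 20 members, 64.5%, against 48.8% of all genes. It lay on the side of replicate 2 for 19 members, 61.3%, against 23.5% of all genes, and on the side of replicate 1 for Commd1 alone, against 25.3%. The split of reads between Commd1 and Gm28048, which overlaps it on the same strand, is uncertain. Gm28048 had more counts in replicate 2, with 1039 in replicate 1 and 1260.3 in replicate 2. The counting intervals cover counting error only and not the spread between pups or library preparations. They narrow as counts rise, and all genes were not matched to the members for counts, so these shares depend on depth as well.

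**Figure D3:**
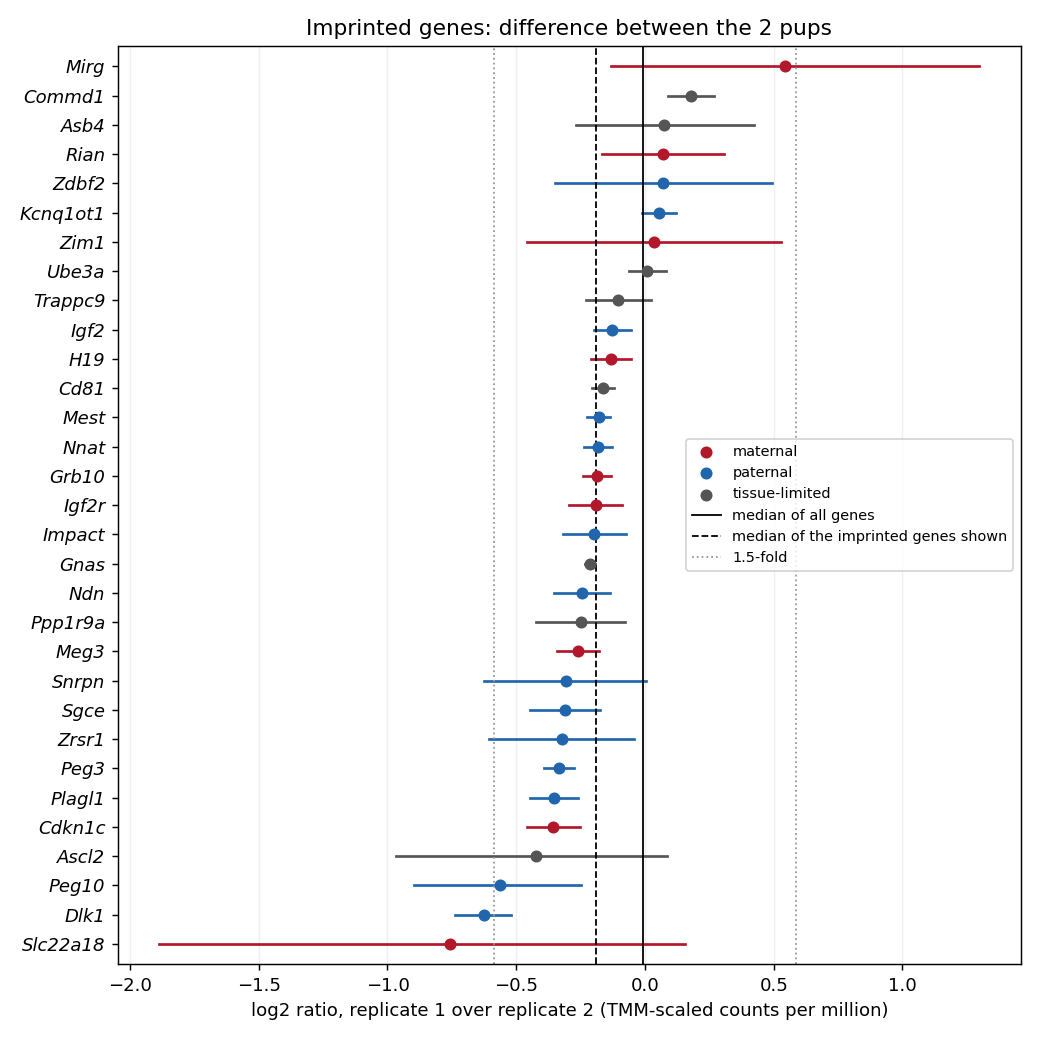
Log2 ratio of replicate 1 over replicate 2 for the 31 imprinted genes that entered, with 95% exact counting intervals as bars, coloured by the allele of expression; the solid line is the median of all genes, the dashed line that of the genes shown, and the dotted lines mark 1.5-fold. Most points lie left of the solid line, and Dlk1 and Slc22a18 lie beyond the 1.5-fold line.

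By class the medians did not point in opposite directions. The 14 paternally expressed members that entered had a median log2 ratio of -0.28, with 12 higher in replicate 2. The 9 maternally expressed ones had -0.18, with 6 higher in replicate 2, and the 8 tissue-limited ones -0.13, with 5. After Slc22a18 and Dlk1, the lowest ratios were those of Peg10 at -0.56, Ascl2 at -0.42, Cdkn1c at -0.36, Plagl1 at -0.35 and Peg3 at -0.33.

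The spleens also differed in cell-type markers. Of the cell types a newborn spleen holds, 7 of 7 erythroid, 6 of 7 B-lineage, 8 of 8 macrophage, 7 of 7 neutrophil and 9 of 9 stromal markers were detected, as were 7 of 7 endothelial, 6 of 6 mesothelial and 5 of 5 smooth muscle markers. All 9 stromal markers, among them Cxcl12 and Col3a1, were higher in replicate 2, with a median log2 ratio of -0.31 and a summed level of 1115 TPM in replicate 1 and 1559.7 TPM in replicate 2. The same held for 8 of 8 macrophage markers such as Slc40a1 and C1qb (599 and 878 TPM), 7 of 7 neutrophil markers such as S100a8 and S100a9 (13256 and 19044 TPM) and 7 of 7 B-lineage markers such as Cd79a and Cd79b (134 and 189 TPM). All 7 erythroid markers, Alas2 and Slc4a1 among them, were higher in replicate 1 (2751 and 2460 TPM). Of the smooth muscle markers, Acta2 and Tagln at their head, 4 of 5 were higher in replicate 1 (388 and 305 TPM, median log2 ratio 0.47). Of the endothelial markers, such as Egfl7 and Stab2, 6 of 7 were higher in replicate 2 (278 and 341 TPM). Of the mesothelial markers, with Msln and Upk3b at their head, 4 of 6 were higher in replicate 2 by scaled counts (167 and 190.4 TPM). Msln was not among these 4, at a log2 ratio of 0.03, and Upk3b stood at -0.03. Markers of the adjoining pancreas were higher in replicate 1 as well, with 949.5 and 329 TPM for 8 acinar markers, Ctrb1 and Clps at their head, and 33.6 and 19.8 TPM for 11 endocrine ones, of which Ins2 and Chga were highest. Of the 6 endocrine markers that entered, 5 were higher in replicate 1, and Chga, with 1.98 and 3.77 TPM, was higher in replicate 2. Liver markers, Apoa1 and Ahsg among them, summed to 33.8 and 16.7 TPM. No marker in these 11 lists was at 0 in both libraries. Of 5 placental markers none was detected, and 3 had 0 counts in both libraries. The part of any of these cell types in the differences of the imprinted genes was not tested.

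**Figure D4:**
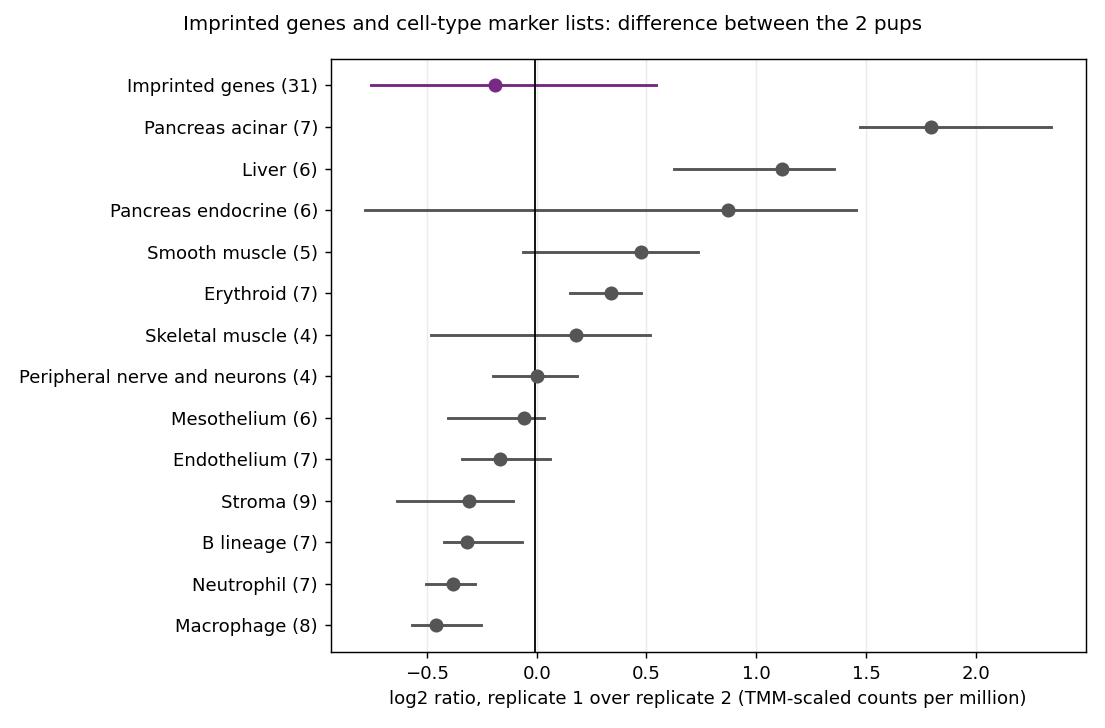
Median log2 ratio of replicate 1 over replicate 2 (points) with the lowest and highest gene (bars) for the imprinted genes and for 13 lists of cell-type markers, with the number of genes in brackets; the vertical line is the median of all genes. The imprinted genes, at -0.19, lie between the endothelial and the stromal list, and the pancreas acinar list lies furthest to the right at 1.80.

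Most listed genes of imprint maintenance were detected. Of 25 such genes, which set, keep, read or erase the marks, 21 were detected, against 55.6% of protein-coding genes. The highest were Trim28, the co-repressor that KRAB zinc finger proteins recruit, with 116 TPM in replicate 1 and 121 TPM in replicate 2, and Uhrf1, which brings the maintenance methyltransferase to replicated DNA, with 104 and 90.5 TPM. Ctcf, the boundary factor of the H19-Igf2 domain, had 82.8 and 81.6 TPM, the chromatin remodeller Atrx 68.7 and 83.7 TPM, and the Polycomb methyltransferase Ezh2 78.1 and 72.3 TPM. Zfp57 and Zfp445, zinc finger proteins that bind methylated imprinting control regions, had 7.05 and 8.30 TPM and 7.84 and 8.67 TPM. Dnmt3l, Dppa3, Ctcfl and Nlrp2, which are known from germ cells and the early embryo, were not detected. None of the 21 genes that entered was 1.5-fold apart, against 7.11% of all genes, and their median log2 ratio was 0.02.

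Partners of the IGF2 and IGF2R members were present as well. Of 23 genes of the IGF axis, 20 were detected, against 55.6% of protein-coding genes. The highest were Igfbp7 with 305 TPM in replicate 1 and 366 TPM in replicate 2, Igfbp4 with 211 and 347 TPM, M6pr, the other mannose 6-phosphate receptor, with 87.5 and 90.8 TPM, Igfbp3 with 66.2 and 83.5 TPM, and Igfbp6 with 33.8 and 43.3 TPM. Apart from M6pr these encode proteins that bind insulin-like growth factors or are named for it. Igf1 stood at 7.08 and 10.4 TPM, below Igf2 in both libraries, and the receptor gene Igf1r at 7.05 and 8.40 TPM. Irs4, Igfals and Igfbp1 were not detected. Of the 21 genes that entered, only the insulin genes Ins1 and Ins2 were 1.5-fold apart, against 7.11% of all genes. Both were higher in replicate 1, at log2 ratios of 0.83 and 1.08. Both are also members of the list of pancreas endocrine markers.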

How the data were processed

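Total RNA longer than 200 bases from 2 spleens, with 10 ng of input, was sequenced, per the labels. The authors deposited tables of genes and of transcripts for each spleen, on mm10 with GENCODE M4 models, per the file headers and the text deposited with them. No source used here gives the aligner, quantifier or strand setting. Expected counts as deposited are estimates that divide reads among features, and TPM and FPKM values come with them. The authors also deposited posterior mean TPM and counts with a posterior SD, a score of the estimate's error, and the percent of each gene on each transcript, which was recomputed here from TPM. Names and coordinates are those of GENCODE M21, matched by Ensembl identifier for 42462 genes. Summed over Ensembl genes, libraries held 33121414 and 32161687 counts in replicates 1 and 2.

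The list of members, picked by name, the other lists and the thresholds were chosen with earlier results of these data known. Every member is named with its level, and from the lists the 5 highest, those 1.5-fold apart and those not detected; Zfp57, Zfp445, Igf1 and Igf1r were added after their values were seen. Rounded counts were scaled with edgeR 4.0.16 (R 4.3.3) by TMM, with a prior count of 2 and a mean count of at least 20. With 1 library per pup no test was possible. Counting intervals are exact Clopper-Pearson intervals at 95%, and 3 counts are the limit for 0. Alternatives were DESeq2 1.42.0 size factors, library size, spike-in totals, deposited TPM, other filters, prior counts and thresholds, and each library alone. Transcripts were assigned to the nearest RefSeq start within 500 bases. Overlapping windows of a gene were merged for the shares of starts, but not for the count of windows with the motif or the median CpG. The CpG content of starts, and the shares over all genes beside those of members' starts and transcripts, were added after seeing the data. The ratio step was tested on simulated counts. Python 3.11.15, pandas 2.3.3, scipy 1.17.1 and matplotlib 3.10.9 were used.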

Additional observations from a re-analysis of the deposited data

How the results depend on the processing

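The count of detected members lay between 27 and 29 with 1 library alone and between 19 and 31 with thresholds of 5 and 0.5 TPM. With 1 library alone the lists of imprint maintenance, IGF axis and other imprinted genes had 21, 20 and 27 detected genes, the members' summed TPM was 1619 or 2006.5, 5 of 9 within-locus ratios were above 1, and 16 or 17 members had a transcript over 50%. At 5 TPM the IGF axis list had 13 detected genes in place of 20. Rescaling TPM without the 4 adult globins raised the members' mean sum to 2470 TPM. The number of members 1.5-fold apart was 1 at a mean count of at least 100, where Slc22a18 no longer entered, and 7 with no filter beyond 1 count, where genes with few counts entered, and 0 at 2-fold. The members' median log2 ratio was -0.31 by deposited TPM. The cause of these shifts was not tested beyond what the settings change by construction. Prior counts of 0.5 and 5 and posterior mean counts for the median ratio were chosen after seeing the data and left it at -0.19. The sign of the ratio depended on the scaling for 6 members, and by counts the leading transcript differed for 3 and the leading start for Igf2. The leading transcripts of Ascl2 and Commd1 differed between the libraries. No paired analysis was possible because the libraries form 1 group. Counting error limits genes under about 20 counts.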

Other observations

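Beyond the 39 listed genes, 42 other genes that are imprinted in some tissue or that overlap an imprinted gene were looked up, and 39 were matched. Of these 27 were detected, against 31.0% of all Ensembl genes and 55.6% of protein-coding genes. The highest were Nap1l4, a nucleosome assembly gene at the edge of the Kcnq1 domain, with 111 TPM in replicate 1 and 113 TPM in replicate 2, and Tspan32, a tetraspanin of blood cells from the same domain, with 97.4 and 92.7 TPM. Dcn, the matrix proteoglycan decorin, followed with 65.2 and 112 TPM, Chrac1 with 54.4 and 60.3 TPM and Pon2 with 56.9 and 57.2 TPM. Of the 31 that entered, 4 were at least 1.5-fold apart, against 7.11% of all genes. They were Kcnq1, Dcn and Sfmbt2, higher in replicate 2 with log2 ratios of -0.90, -0.64 and -0.61, and Htr2a, higher in replicate 1 at 0.70. Kcnq1 rests on 33.2 and 66 counts and differed less by TPM, with 0.68 in replicate 1 and 0.76 in replicate 2. It lies opposite Kcnq1ot1, so reads of these genes may be divided in error. Dcn is also one of the stromal markers. Not detected were Slc22a2, Kcnq1, Th, Begain, Mkrn3, Atp10a, Rasgrf1, Kcnk9, Gpr1, Klf14, Cdh15 and Htr2a.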
